A study of Mus musculus with 47 samples.

Results

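The 10 genes described here encode acute-phase and oxidative defence proteins of the gut, and they were taken by symbol from a count table of 24062 gene symbols over 47 libraries. They are Saa1, Saa2, Saa3, Lcn2, S100a8, S100a9, Nos2, Duox2, Duoxa2 and Nox1. RNA was extracted from intestinal tissue of mice labelled 15 to 19 weeks old and from intestinal organoids, depleted of ribosomal RNA, and read as single ends. The part of the intestine, sex, and whether replicates are separate animals are not given, so p-values measure the spread between libraries.

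Tissue came as wild-type mucosa of mice with intact Apc, as uninvolved mucosa of mice with the Apc Min allele (Min mucosa), and as adenoma of Min mice. The Min allele truncates Apc, a brake on Wnt signalling, and mice that carry it develop adenomas along the intestine. The backgrounds were C57BL/6 (B6), C5, a consomic line whose chromosome 5 is that of PWD/Ph and whose remaining chromosomes are C57BL/6, and C5F1, the F1 of C57BL/6 and the consomic line. B6xPWD is the F1 of C57BL/6 and PWD, and PWD/Ph itself (PWD) gave wild-type mucosa only. Each of these 13 tissue groups held 3 libraries. Organoids of B6 and C5, all labelled with the Min allele and cultured with or without 5-aza-cytidine (AZA), an inhibitor of DNA methylation, formed 4 groups of 2 libraries. The labels used here give no dose or length of the AZA treatment.

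Serum amyloid A proteins are lipid carriers that the liver and the gut epithelium release when bacteria attach or inflammation starts. Lipocalin 2, the product of Lcn2, binds the siderophores by which bacteria take up iron. S100a8 and S100a9 form calprotectin, a metal-binding complex stored by neutrophils and also made by stressed epithelium. The remaining members make reactive oxygen or nitrogen. Nos2 is the inducible nitric oxide synthase, Duox2 is an epithelial oxidase that releases hydrogen peroxide and needs its maturation factor Duoxa2, and Nox1 is a superoxide-making oxidase of intestinal epithelium. Inflammatory interleukins and bacterial products acting through NF-kappaB, STAT3 and C/EBP factors are the known inducers of most of these genes.

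None of the members lies on chromosome 5, the chromosome exchanged in C5. On mm10 (RefSeq positions of GRCm38.p6), Saa3 at chr7:46711998-46719615, Saa1 at chr7:46740497-46743181 and Saa2 at chr7:46751833-46754313 lie in 1 cluster, with 8651 bases between Saa1 and Saa2. Lcn2 lies at chr2:32384637-32387739. S100a8 at chr3:90669071-90670034 and S100a9 at chr3:90692630-90695721 are 22595 bases apart. Nos2 lies at chr11:78920787-78960226 and Nox1 at chrX:134086421-134137711. Duox2 at chr2:122279246-122298740 and Duoxa2 at chr2:122298900-122302885 point away from each other across only 159 bases.

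The upstream sequences of 4 acute-phase members are shown because each holds a match to the C/EBP motif TTGCNNAA, the class of site through which acute-phase induction is known to act. They come from RefSeq's table of bases before gene starts (GRCm38.p6), cut where an exon of the GENCODE models begins. The RefSeq gene spans of Saa1 and Saa3 reach further upstream than these starts. The GENCODE gene span of Lcn2 reaches to position 32388252, so the whole Lcn2 stretch shown lies within that span. The sequences are written 5′ to 3′ on the gene's strand, with the match in capitals.
Saa1, chr7:46742981-46743230, minus strand: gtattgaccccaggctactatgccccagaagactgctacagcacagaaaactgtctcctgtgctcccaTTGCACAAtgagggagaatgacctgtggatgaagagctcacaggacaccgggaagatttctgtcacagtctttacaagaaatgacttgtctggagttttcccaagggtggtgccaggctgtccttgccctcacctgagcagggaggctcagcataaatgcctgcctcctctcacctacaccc
Saa2, chr7:46751583-46751789, plus strand: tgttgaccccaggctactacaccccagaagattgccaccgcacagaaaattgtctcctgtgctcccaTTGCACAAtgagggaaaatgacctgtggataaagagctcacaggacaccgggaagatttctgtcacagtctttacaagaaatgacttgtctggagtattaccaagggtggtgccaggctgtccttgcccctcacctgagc
Saa3, chr7:46715701-46715926, minus strand: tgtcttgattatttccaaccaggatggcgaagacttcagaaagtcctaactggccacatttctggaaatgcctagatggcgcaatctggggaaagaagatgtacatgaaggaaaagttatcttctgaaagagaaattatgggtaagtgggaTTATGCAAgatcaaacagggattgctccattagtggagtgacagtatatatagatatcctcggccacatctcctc
Lcn2, chr2:32387798-32387989, minus strand: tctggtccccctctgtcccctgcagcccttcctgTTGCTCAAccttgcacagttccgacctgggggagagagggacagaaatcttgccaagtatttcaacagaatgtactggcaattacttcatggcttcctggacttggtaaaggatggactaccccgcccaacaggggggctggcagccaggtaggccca

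RefSeq windows of 250 bases before the start were present for 9 of the 10 members. The C/EBP motif, searched on both strands, stood in 5 of these 9, the fifth being S100a9, and in 9.56% of all 32851 windows. The STAT motif TTCNNNGAA was in none of the 9 and in 7.02% of all windows. A kappaB consensus match was found for Nox1 alone among the members, against 3.9% of all windows. A match is a string of letters, not a measured site. The windows of Saa1 and Saa2 were 94.8% identical over their aligned positions, whereas those of Saa1 and Saa3 were 48.5% identical.

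The likeness of Saa1 and Saa2 extends into their transcripts, where 17.2% of the 36-base windows of Saa1 also occur in Saa2. Reads from such windows cannot be given to 1 gene, so levels of the pair are uncertain. RefSeq also lists each of their symbols as a synonym of the other, and the table does not say which convention its annotation used. Saa2 had at most 3 counts in any library. Its counts summed to 11 over the 12 wild-type libraries that match Min mice in background, 4 in Min mucosa and 3 in adenoma, and it did not pass the filter on low counts. Counts of Saa1 and Saa2 summed to 1 row gave the same calls as Saa1 alone.

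Levels are given in CPM, gene counts scaled to library totals that TMM factors had adjusted to a common reference. Per kilobase of transcript, Duoxa2 was the most abundant member in adenoma, with 86.2 CPM per kb, followed by Saa1 at 29.2, Lcn2 at 27.1 and Duox2 at 20.2 CPM per kb. Saa3 stood at 12.7, Nos2 at 6.75, S100a9 at 3.41, S100a8 at 3.16 and Nox1 at 3.15 CPM per kb. In Min mucosa the order began with Duoxa2 at 57.6, Saa1 at 39.9, Duox2 at 17.3 and Nos2 at 16.7 CPM per kb. Lcn2 thus ranked 3 of the 10 in adenoma and 7 in Min mucosa, at 1.72 CPM per kb. These orders are by means of 12 libraries. The SD in adenoma was 43.9 for Saa1, 30.9 for Lcn2 and 11.6 for Duox2, and that of Saa1 in Min mucosa was 64.3 CPM per kb. In adenoma the median of Saa1 was 5.95 CPM, against a mean of 17.8 CPM.

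Comparing adenoma with Min mucosa over the 4 backgrounds asks which defence genes are higher or lower in tumour tissue. Of the 9 members tested, Lcn2, Saa3, S100a8, S100a9 and Duoxa2 rose and Nos2 fell. The other 3, Saa1, Duox2 and Nox1, did not pass the test. Calls here and elsewhere rest on edgeR's quasi-likelihood test, with a Benjamini-Hochberg threshold of 0.05 over all genes of the fit. Of the 13657 genes, 23.7% were called higher and 21.5% lower. The median log2 change of the members was 1.05, beside 0.01 over all genes. The count of 6 called members became 3 (Lcn2, S100a9 and Nos2) without B6xPWD adenoma replicate 3. In bulk tissue, fewer cells of a type and less RNA per cell cannot be told apart.

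**Figure D1:**
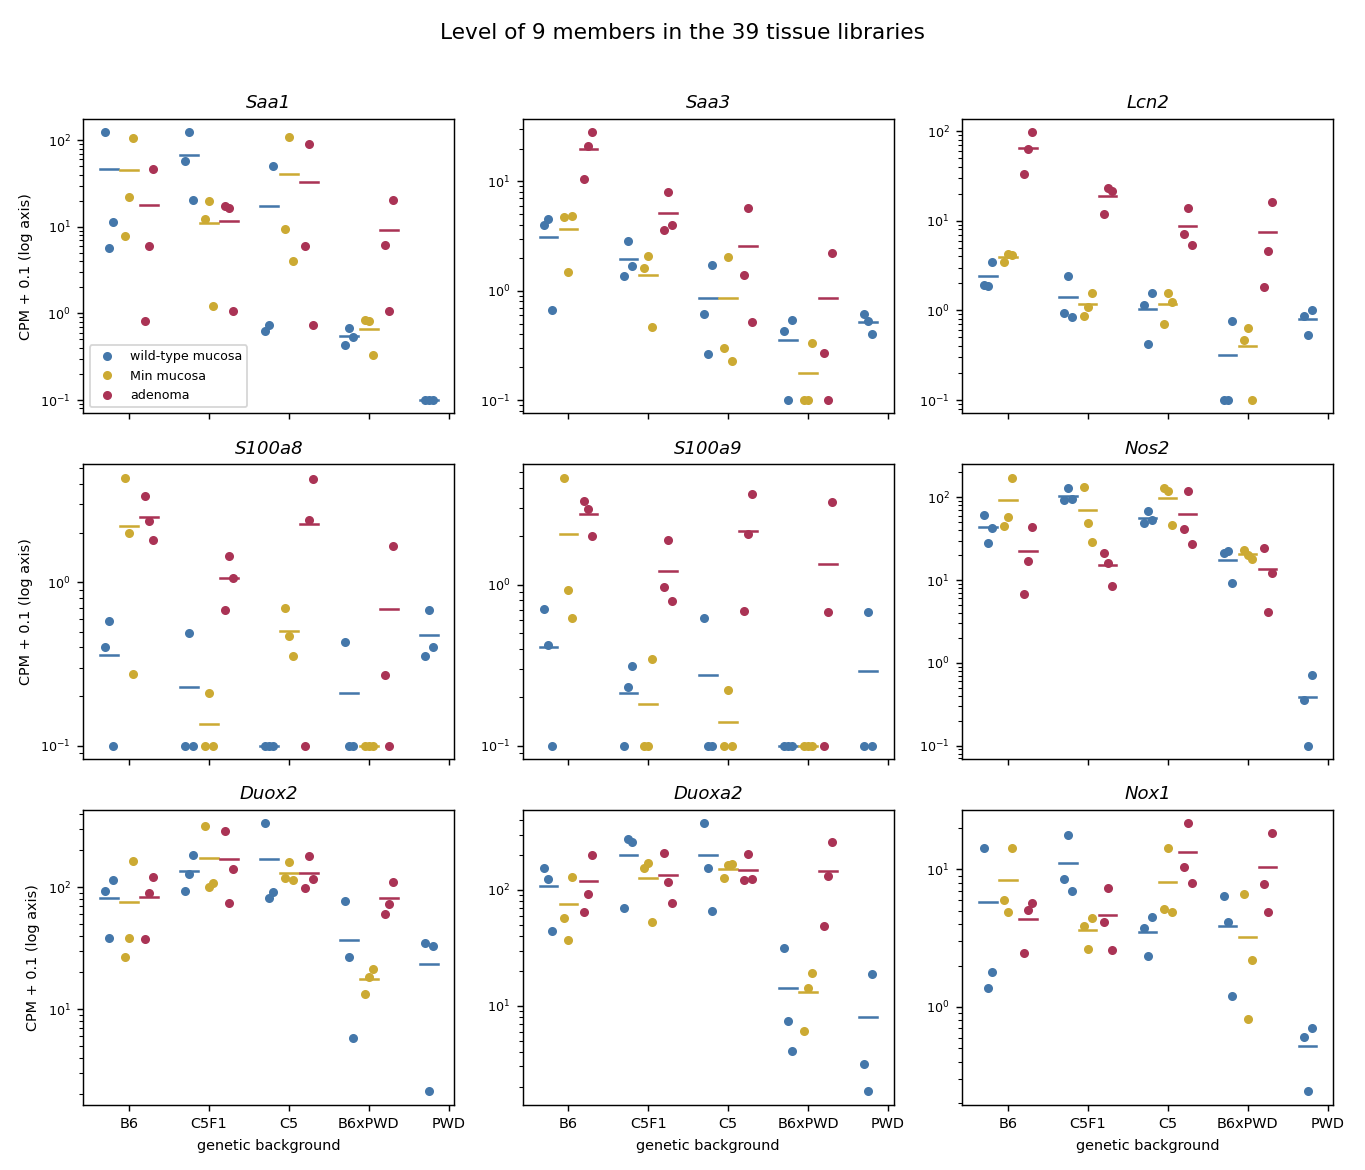
CPM of the 9 members that passed the filter, plus 0.1 and on a log axis, for each of the 39 tissue libraries (points), by genetic background on the horizontal axis and coloured by tissue. Lcn2 in adenoma lies above Min mucosa of the same background throughout, B6 adenoma reaches 97.1 CPM, and Saa1 is at 0 in all 3 PWD libraries.

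Lcn2 showed the largest change among the members. In B6 it measured 32.8, 62.9 and 97.1 CPM in the 3 adenoma libraries, 3.39, 4.11 and 4.02 CPM in Min mucosa, and 1.81, 1.76 and 3.40 CPM in wild-type mucosa. In C5F1 the adenoma libraries held 11.6, 23.1 and 21.3 CPM, against 0.760, 0.985 and 1.48 CPM in Min mucosa. In all of these the adenoma libraries were clear of the mucosa libraries. C5 adenoma held 6.996, 13.9 and 5.27 CPM, and C5 Min mucosa 0.601, 1.47 and 1.14 CPM. B6xPWD adenoma held 1.71, 4.45 and 16.1 CPM, and B6xPWD Min mucosa 0.368, 0.535 and 0 CPM. Adenoma was higher in 12 of 12 pairs of libraries with the same replicate number, and within each background the groups did not overlap. Over the 12 libraries of each tissue adenoma averaged 24.8 ± 28.3 CPM and Min mucosa 1.57 ± 1.44 CPM (SD, n = 12 each). The fitted log2 change was 3.46 ± 0.29 (SE), an 11-fold rise with an adjusted p of 1.56e-11 in edgeR.

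Lcn2 rose in each background taken alone as well. The rise was 15.5-fold in B6 (log2 3.95 ± 0.51, edgeR adjusted p = 6.99e-07), 13-fold in C5F1 (3.71 ± 0.58, 2.23e-05), 6.36-fold in C5 (2.67 ± 0.55, 0.00289) and 11.53-fold in B6xPWD (3.53 ± 0.64, 0.000273). When the 6 B6xPWD libraries were fitted alone, Lcn2 had too few counts to be tested. The wild-type level of Lcn2, from 0 to 3.40 CPM over 12 libraries with a median of 0.941, overlapped with that of Min mucosa.

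Saa3, the serum amyloid A form made largely outside the liver, moved with Lcn2 but at a lower level. B6 adenoma held 10.3, 21.1 and 28.2 CPM, against 4.65, 1.37 and 4.72 CPM in B6 Min mucosa. C5F1 adenoma held 3.49, 7.83 and 3.86 CPM, against 1.52, 1.97 and 0.370 CPM. The groups were apart in both. In C5 they overlapped, with 1.28, 5.62 and 0.422 CPM in adenoma against 0.200, 1.96 and 0.126 CPM in Min mucosa. In B6xPWD only 9 counts fell on Saa3 in the 3 adenoma libraries together and 1 in Min mucosa, a ratio of 10.96 with a 95% counting interval of 1.52 to 480.3. Saa3 was higher in adenoma in 11 of 12 same-numbered pairs and equal in the other, which held no counts. The mean rise was 3.30-fold (log2 1.72 ± 0.42, edgeR adjusted p = 0.00102), and without B6xPWD adenoma replicate 3 it was 1.39 on the log2 scale with an adjusted p of 0.211. Taken alone, B6 gave a 5.14-fold rise (log2 2.36 ± 0.65, adjusted p = 0.00688), which had an adjusted p of 0.051 without B6 Min mucosa replicate 2.

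Saa1 varied more between libraries of a group than between tissues. B6 wild-type mucosa held 123.1, 5.60 and 11.3 CPM, B6 Min mucosa 7.80, 22.2 and 105.5 CPM, and B6 adenoma 0.714, 5.89 and 46.96 CPM. C5 Min mucosa held 9.42, 107.7 and 3.91 CPM and C5 adenoma 5.83, 91.5 and 0.633 CPM. In B6 and C5 the replicate number that was highest in Min mucosa was also highest in adenoma, and the lowest was also lowest. C5F1 held 57.1, 124 and 20.3 CPM in wild-type mucosa, 12.2, 20.0 and 1.11 in Min mucosa, and 17.2, 16.3 and 0.964 in adenoma. In B6xPWD, Saa1 was low in mucosa, at 0.330, 0.579 and 0.440 CPM in wild-type and 0.737, 0.713 and 0.234 CPM in Min libraries, and reached 6.00, 0.966 and 20.3 CPM in adenoma. The mean over 4 backgrounds was not called, with a fitted log2 change of 0.40 ± 0.68 and an edgeR adjusted p of 0.664. The sign of that value is not that of the mean levels, with adenoma at 17.8 ± 26.8 CPM and Min mucosa at 24.3 ± 39.1 CPM (SD, n = 12 each). Saa1 was lower in adenoma in 8 of 12 same-numbered pairs and higher in 4. Leaving out B6 adenoma replicate 3 or C5 adenoma replicate 2 turned the fitted value negative.

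Replicate numbers pair the adenoma and Min mucosa libraries, since deviations from the group means correlated over genes in all 12 pairs. With the number as a block in a fit of these 24 libraries alone, Saa1 was called in opposite directions in 2 backgrounds. In B6 it fell by 1.83 ± 0.36 on the log2 scale (edgeR adjusted p = 0.000744), lower in 3 of 3 pairs. In B6xPWD it rose by 3.08 ± 0.60 (0.00134), higher in 3 of 3 pairs. 1 of these pairs held only 5 counts in adenoma against 4 in Min mucosa, and another held 77 against 1. The SE draws on the spread over all libraries of the fit, not on these 3 pairs alone. The blocked B6 fit called 5 members (Lcn2, Saa3 and Duoxa2 higher, Nos2 and Saa1 lower) where 36.2% of 13444 genes were called either way. The same comparison without the block called 3, with 13% of genes called higher and 13.7% lower. With the block in a fit of all tissue libraries, Saa1 was called in neither background. In B6 it then stood at -1.70 ± 1.28 (edgeR adjusted p = 0.339). That fit also ties wild-type libraries, whose numbers did not pair with Min mucosa.

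S100a8 and S100a9 had the lowest mean CPM in adenoma of the members that passed the filter, and their rise rests on few counts. B6 adenoma held 3.23, 2.85 and 1.92 CPM of S100a9, and B6 Min mucosa 4.53, 0.822 and 0.525 CPM, so that the groups overlapped. In C5 the S100a9 values were 0.583, 1.98 and 3.58 CPM in adenoma against 0, 0.122 and 0 CPM in Min mucosa. In C5F1 they were 0.873, 1.79 and 0.688 CPM in adenoma against 0, 0 and 0.246 CPM in Min mucosa. Outside B6, then, S100a9 was almost without counts in Min mucosa. B6xPWD Min mucosa had no count of S100a9, and its adenoma libraries held 0, 0.580 and 3.16 CPM, at least 7.49-fold higher against a floor of 3 counts over the group, with 12 of the 15 counts in replicate 3. The pooled count ratio of adenoma to Min mucosa was 37.0 in C5 (95% counting interval 6.21 to 1505) and 12.3 in C5F1 (3.14 to 106). Averaged over backgrounds, S100a9 rose by 1.78 ± 0.34 on the log2 scale (edgeR adjusted p = 8.96e-05) and was higher in 10 of 12 pairs. As 1 of the groups is at 0, this fitted value depends on the prior count of 2.

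S100a8 gave a similar picture, with 3.30, 2.28 and 1.71 CPM in B6 adenoma and 4.28, 1.92 and 0.175 CPM in B6 Min mucosa. In C5F1 it measured 0.582, 1.34 and 0.964 CPM in adenoma against 0, 0.109 and 0 CPM in Min mucosa, a pooled ratio of 20.8 (3.43 to 851). C5 adenoma held 0, 2.31 and 4.22 CPM against 0.601, 0.367 and 0.252 CPM in C5 Min mucosa, so that the groups overlapped. B6xPWD adenoma held 0.171, 0 and 1.58 CPM, and B6xPWD Min mucosa had no count. S100a8 was higher in adenoma in 9 of 12 pairs and lower in 2. The mean rise was 1.31 ± 0.35 on the log2 scale (edgeR adjusted p = 0.00283), and it had an adjusted p of 0.0968 without B6xPWD adenoma replicate 3. This fitted value, too, depends on the prior count. In wild-type mucosa S100a8 had 9 counts and S100a9 10 counts over 12 libraries.

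Neutrophils are the main store of calprotectin. Of the listed neutrophil markers 15 were in the count table, and 7 could be tested. Ltf (lactoferrin, 8.35-fold) and Mmp9 (gelatinase B, 1.4-fold) were called higher, with none lower and a median of 0.49, beside 23.7% of all genes higher. The blocked fit called 4 of 7 higher. Their summed level ranged from 27.3 to 173.1 CPM in adenoma (median 57.9), from 17.5 to 86.9 in Min mucosa (35.9) and from 13.2 to 56.3 in wild-type mucosa (30.0). Mpo and Elane, which encode neutrophil granule proteins, had no counts in any tissue library, but absent RNA does not show absent cells. Cd177 took the largest part of the sum in B6 adenoma, with a mean of 86.9 CPM. Over the 39 tissue libraries the summed level had a Spearman correlation of 0.742 with Saa3, 0.672 with S100a8, 0.669 with S100a9 and 0.663 with Lcn2. These points share tissue and background, and the part of neutrophils in the members' rise was not tested.

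Nos2 was the 1 member called lower in adenoma over the 4 backgrounds. In B6 it measured 6.63, 17.1 and 44.2 CPM in adenoma against 44.8, 57.5 and 172 CPM in Min mucosa. In C5F1 it measured 20.9, 16 and 8.40 CPM against 133.8, 49.1 and 28.7 CPM. The highest adenoma library lay below the lowest Min library in both. C5 overlapped, with 40.9, 117.6 and 27.4 CPM in adenoma against 129.8, 117.8 and 46.4 CPM in Min mucosa, and so did B6xPWD, with 24.2, 4.06 and 12.1 CPM against 23.0, 20.0 and 18.02 CPM. Adenoma was lower in 11 of 12 pairs. Over backgrounds Nos2 fell by 1.36 ± 0.31 on the log2 scale, 2.56-fold lower (edgeR adjusted p = 0.000618). Wild-type mucosa, with 9.01 to 127.9 CPM and a median of 50.6, overlapped with Min mucosa, which held 18.02 to 172 CPM with a median of 47.8.

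Within backgrounds, Nos2 fell 4.15-fold in B6 (log2 -2.05 ± 0.63, adjusted p = 0.0143) and 4.44-fold in C5F1 (-2.15 ± 0.65, 0.0162). The B6 call was lost without B6 adenoma replicate 1 or 2 (adjusted p = 0.101 and 0.0642) or without B6 Min mucosa replicate 3 (0.167). The C5F1 call was lost without C5F1 adenoma replicate 3 (0.0828) or Min mucosa replicate 1 (0.125). Lcn2 and Nos2 were the members called in C5F1, where 10.9% of genes were called higher and 9.66% lower. The blocked fit added Saa3, S100a8 and S100a9 there, 5 members with 29% of genes called either way.

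Macrophages and monocytes can also make nitric oxide through Nos2. Of 13 of their markers tested 1 was called higher (Cd14, 1.75-fold) and 5 lower, among them Itgam (1.36-fold), Lyz2 (1.53-fold) and Adgre1 (1.56-fold), with a median of -0.42. Their sum ranged from 127.3 to 484.3 CPM in adenoma (median 183.1) and from 190.8 to 390.4 CPM in Min mucosa (267.6). Markers of absorptive distal ileum fell with Nos2 as well, 4 of 7 called lower with a median of -1.34. Their sum had a median of 1564 CPM in adenoma (561.6 to 3693) and 3294 CPM in Min mucosa (1823 to 8234). The part of these cells in the fall of Nos2 was not tested.

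Duox2 and Duoxa2, the oxidase and its maturation factor, had counts in every tissue library. They differed most between adenoma and Min mucosa in B6xPWD. Group means of Duoxa2 ranged from 7.87 CPM in PWD to 201.3 CPM in C5F1, both wild-type mucosa. Those of Duox2 ranged from 17.5 CPM in B6xPWD to 174 CPM in C5F1, both Min mucosa. The stretch between Duox2 and Duoxa2 is shown because it is all that separates their RefSeq gene models. The GENCODE model of Duox2 ends further away, at position 122298449. The stretch reads from Duox2 to Duoxa2 on the plus strand, and capitals mark the match to TATAAA that lies 30 to 25 bases before the start of Duoxa2, a motif present on the gene's strand in 7.59% of all windows.
Duox2 to Duoxa2, chr2:122298741-122298899: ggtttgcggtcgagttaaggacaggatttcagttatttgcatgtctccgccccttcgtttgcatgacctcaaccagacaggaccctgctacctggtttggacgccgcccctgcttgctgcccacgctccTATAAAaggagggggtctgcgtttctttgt

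In B6xPWD, Duoxa2 measured 31.4, 7.33 and 3.96 CPM in wild-type mucosa and 6.02, 14.3 and 19.0 CPM in Min mucosa. Its B6xPWD adenoma libraries held 48.3, 131.4 and 260 CPM. Duox2 in B6xPWD measured 77.5, 26.8 and 5.71 CPM in wild-type mucosa and 13.1, 18.2 and 21.1 CPM in Min mucosa. The adenoma libraries held 60.0, 73.3 and 109 CPM of Duox2. Adenoma was clear of Min mucosa for both. The rise was 11.2-fold for Duoxa2 (log2 3.48 ± 0.80, edgeR adjusted p = 0.00276) and 4.59-fold for Duox2 (2.20 ± 0.78, 0.0497). The Duox2 call, close to the threshold, was lost when any 1 of 5 of the 6 B6xPWD libraries was left out, with adjusted p from 0.0661 to 0.152.

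In the other backgrounds the tissues overlapped for both genes. B6 adenoma held 64.2, 91.2 and 200.7 CPM of Duoxa2 and B6 Min mucosa 57.2, 37.1 and 130 CPM. C5 adenoma held 120.7, 205.3 and 122.9 CPM and C5 Min mucosa 126.2, 165.5 and 166.8 CPM. C5F1 adenoma held 207.7, 117.5 and 77.1 CPM and C5F1 Min mucosa 155.8, 169.8 and 52.7 CPM. The 2 ranges overlapped in each background. Duox2 ranged from 37.6 to 290.2 CPM in adenoma and from 26.8 to 314.6 CPM in Min mucosa over the same 3 backgrounds, again overlapping in each. Averaged over 4 backgrounds, Duoxa2 rose 2.07-fold (log2 1.05 ± 0.36, edgeR adjusted p = 0.0179), a call lost without B6 adenoma replicate 3 (0.0514) or B6xPWD adenoma replicate 3 (0.0573). Duox2 stood at 0.57 ± 0.37 with an adjusted p of 0.209. With the block it was called, at 0.63 ± 0.11 and an adjusted p of 0.000165, in a fit that called 7 of 9 members and 52.3% of genes either way.

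In B6xPWD the members called were Lcn2, S100a9, Duox2 and Duoxa2, all higher, beside 9.43% of genes higher and 6.98% lower. Of these, Lcn2 and Duoxa2 were the pair still called without B6xPWD adenoma replicate 3 or without Min mucosa replicate 2 or 3. The blocked fit added Saa1 and Nox1, 6 members with 24.3% of genes called either way. C5 had fewer calls of all kinds, 2.59% of genes higher and 0.176% lower, and Lcn2 and S100a9 were its members called. The S100a9 call in C5 (log2 2.67 ± 0.72, adjusted p = 0.0386) was lost when any of 5 of the 6 libraries was left out, with adjusted p from 0.0904 to 0.212.

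**Figure D2:**
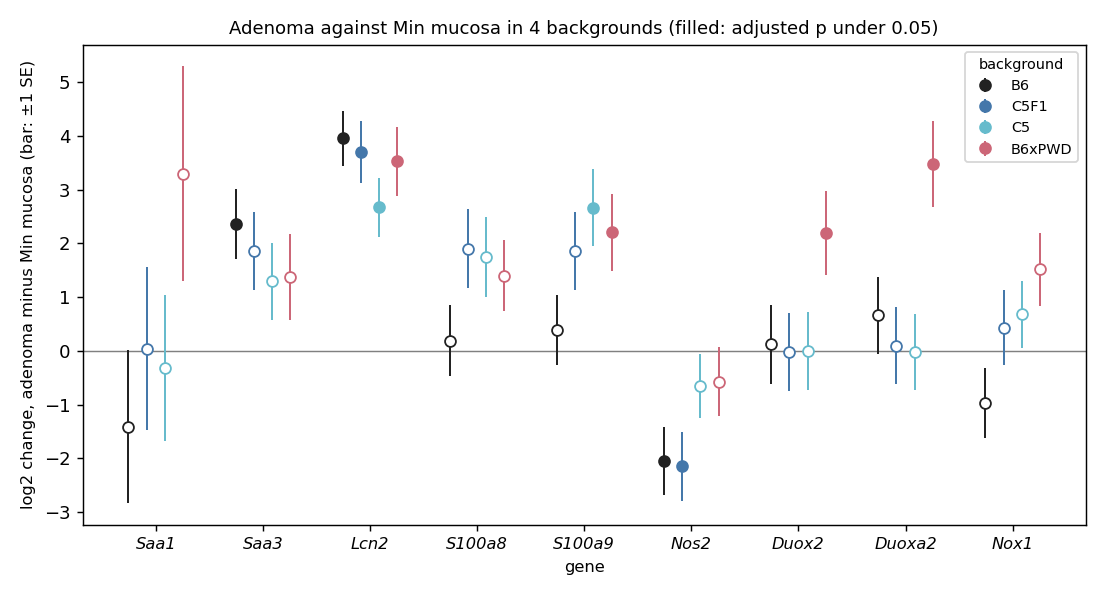
Fitted log2 change of adenoma against Min mucosa (vertical axis, bars ± 1 SE) for 9 members (horizontal axis) in 4 backgrounds (colours), from the fit without the block. Filled points have an adjusted p under 0.05: Lcn2 is filled in all 4 backgrounds, Nos2 lies below 0 and is filled in B6 and C5F1, and Duoxa2 is filled in B6xPWD at 3.48.

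Nox1 was called in no background without the block when all libraries were fitted. B6 held 2.38, 4.94 and 5.55 CPM in adenoma against 5.91, 4.79 and 14.2 CPM in Min mucosa. C5 held 10.3, 21.5 and 7.80 CPM in adenoma against 5.01, 14.3 and 4.80 CPM in Min mucosa. C5F1 held 4.07, 7.23 and 2.48 CPM in adenoma against 3.80, 2.52 and 4.31 CPM in Min mucosa. The tissues overlapped in each, and also in B6xPWD, with 7.71, 4.83 and 18.2 CPM in adenoma against 6.51, 0.713 and 2.11 CPM in Min mucosa. The mean change was 0.41 ± 0.34 on the log2 scale (edgeR adjusted p = 0.333). With the block, Nox1 rose in B6xPWD by 1.54 ± 0.47 (adjusted p = 0.0242), higher in 3 of 3 pairs. Without B6xPWD Min mucosa replicate 1 and with no block it was also called there, at 2.64 ± 0.85 (0.0353).

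Whether the adenoma effect depends on the background was tested as the difference of 2 effects. No member was called for C5F1 minus B6, where 0% of genes were called, for C5 minus B6 (0.11%) or for B6xPWD minus B6 (0.63%). At an unadjusted p under 0.05 in edgeR these tests held 1 member (S100a8), 1 member (S100a9) and 3 members (S100a9, Duoxa2 and Nox1), and DESeq2 called none. The same cut held 397, 1276 and 1612 of all 13657 genes. In the blocked fit of these 2 tissues, 4 members were called for B6xPWD minus B6, beside 3.85% of genes. The adenoma effect in B6xPWD exceeded that in B6 by 4.92 ± 0.70 for Saa1 (edgeR adjusted p = 0.00133), 2.63 ± 0.34 for Duoxa2 (0.00084), 1.76 ± 0.33 for Duox2 (0.00732) and 2.42 ± 0.62 for Nox1 (0.0388), all on the log2 scale. Saa1 had 11 counts in B6xPWD Min mucosa. With the block in a fit of all tissue libraries, no member was called for B6xPWD minus B6. These comparisons share the B6 libraries. Lcn2 was not called in any of the 3 differences, with or without the block.

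The contrast of Min and wild-type mucosa asks whether the Min allele changes these genes outside tumours. No member was called over the 4 backgrounds by edgeR or by DESeq2, none had an unadjusted p under 0.05, and 0.00732% of genes were called. Lcn2 differed by 0.26 ± 0.37 on the log2 scale, Nos2 by 0.35 ± 0.31 and Duoxa2 by -0.42 ± 0.37. An absence of calls does not show equal levels, given the spread of Saa1 and Duox2 within groups.

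In wild-type mucosa, Saa1, Saa3, Nos2, Duoxa2 and Nox1 were lower in PWD than in B6, while Lcn2, S100a8, S100a9 and Duox2 were not called. PWD held no count of Saa1 in 3 libraries, where B6 held 871, at least 220-fold lower (edgeR adjusted p = 0.0251). Of the 871 counts 816 lie in B6 replicate 1, and without that library Saa1 was at least 39.97-fold lower and not called (adjusted p = 0.25). Nos2 had 3 counts in PWD and 653 in B6, a ratio of 211 with a 95% counting interval of 71.7 to 1023 (adjusted p = 1.34e-05). The PWD libraries held 0.254, 0 and 0.608 CPM of Nos2, below every other tissue library. Duoxa2 measured 3.05, 1.73 and 18.8 CPM in PWD against 154.5, 123.5 and 44.2 CPM in B6, 14.5-fold lower (0.00136). Nox1 measured 0.508, 0.144 and 0.608 CPM against 14.2, 1.28 and 1.70 CPM, 9.90-fold lower (0.00789), and Saa3 was 5.11-fold lower (0.0424). Duox2, at 35.0, 2.02 and 32.8 CPM against 92.0, 38.4 and 114.6 CPM, did not overlap but was not called (0.102). The 5 members called lower stand beside 8.79% of genes lower and 9.96% higher. Leaving out B6 wild-type mucosa replicate 1 or PWD replicate 2 left Nos2 and Duoxa2 as the calls, and leaving out PWD replicate 1 or 3 left these and Nox1.

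Saa3 and Duoxa2 were also lower in B6xPWD than in B6 wild-type mucosa, by 2.77 ± 0.87 and 2.98 ± 0.80 on the log2 scale (edgeR adjusted p = 0.0401 and 0.0165), beside 4.31% of genes called lower and 5.29% higher. Neither was called without B6 replicate 1 or without B6xPWD replicate 2 or 3. The Saa3 call was also lost without B6 replicate 2 (edgeR adjusted p = 0.121) or B6xPWD replicate 1 (0.0788). Saa3 had 3 counts in B6xPWD wild-type mucosa and 55 in B6. Saa1 at 0.330 to 0.579 CPM lay far below the 5.60 to 123.1 CPM of B6, but was not called (0.0647). DESeq2 called Saa1 and also Lcn2 (log2 -3.23, adjusted p = 0.0233). Lcn2 was also called by edgeR with the replicate number as a block (-2.31 ± 0.69, 0.0299). That block ties equal numbers of different backgrounds, which the labels do not pair. C5 and C5F1 wild-type mucosa gave no call among the members, where 1.47% and 0.022% of genes were called. At an unadjusted p under 0.05 in edgeR they held Saa3 and Nos2, 1 member each, and DESeq2 called none. The same cut held 2176 of all 13657 genes in C5 and 1565 in C5F1.

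Reads of PWD chromosomes were aligned to the C57BL/6 genome, and the part of sequence differences in these low counts was not tested. Other cells and regions differed in the same groups. Macrophage and monocyte markers summed to 480.4 to 736 CPM in PWD wild-type mucosa and 232 to 309.6 CPM in B6. Proximal small intestine markers summed to 1909 to 18820 CPM in PWD and 467 to 5140 CPM in B6, and distal ileum markers to 5590 to 9469 CPM in B6xPWD and 1029 to 3219 CPM in B6. Reg3b, an antibacterial lectin that bacteria induce in the epithelium, was 4.67-fold lower in PWD (adjusted p = 0.0401) and 5.47-fold lower in B6xPWD (0.0414). The part of cell makeup or sampled region in the members' differences was not tested.

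In adenoma, Lcn2 and Saa3 were lower in C5 and in B6xPWD than in B6. C5 adenoma was 7.08-fold below B6 for Lcn2 (log2 -2.82 ± 0.48, edgeR adjusted p = 0.000129) and 7.19-fold below for Saa3 (-2.85 ± 0.67, 0.00352), beside 8.28% of genes lower and 9.49% higher. B6xPWD adenoma was 8.72-fold below B6 for Lcn2 (-3.12 ± 0.50, 6.82e-05) and 20.8-fold below for Saa3 (-4.38 ± 0.78, 0.000249), beside 6.98% of genes lower and 9.95% higher. No C5 or B6xPWD adenoma library reached the lowest B6 adenoma library for either gene. Min mucosa had the same order for Lcn2, with 3.39 to 4.11 CPM in B6, 0.601 to 1.47 in C5 and 0 to 0.535 in B6xPWD. Its Saa3 means were 3.58 CPM in B6, 0.761 in C5 and 0.078 in B6xPWD, and the B6 and C5 libraries overlapped. These Min mucosa differences between backgrounds were not tested. In C5F1 adenoma no member was called, with 0.483% of genes called, although Lcn2 (-1.73 ± 0.45, 0.0666) and Saa3 (-1.83 ± 0.63, 0.155) did not overlap with B6. Both had an unadjusted p under 0.05 in edgeR, as had 2081 of all 13657 genes, and DESeq2 called Lcn2 alone (0.0485). Lcn2 and Saa3 were highest in B6 adenoma of all 13 tissue groups, and for both C5F1 adenoma came next without overlap. These comparisons share the 3 B6 adenoma libraries. The neutrophil marker sum was also highest there, at 104.4 to 173.1 CPM in B6 adenoma and 27.3 to 59.5 CPM in B6xPWD adenoma.

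Other genes of the acute-phase pathway were read from lists made for these tissues, with medians set beside the 0.01 of all genes. Among 9 acute-phase proteins tested 5 rose in adenoma and none fell, with a median of 0.84. They included Lrg1, a leucine-rich glycoprotein (12.9-fold, edgeR adjusted p = 6.8e-10), haptoglobin Hp (7.92-fold), the protease inhibitor Serpina3n (4.50-fold) and the metalloreductase Steap4 (3.20-fold). Liver markers, whose tissue makes these proteins, rose for 3 of 6, with Alb at 14.4-fold. Alb ranged from 37.6 to 57.6 CPM in B6 adenoma and from 0.422 to 1.98 CPM in C5 adenoma, and the part of such transcripts in the acute-phase values was not tested. Of 7 inducing cytokines tested 5 rose and none fell (median 1.34), led by Il33 (6.88-fold), Il11 (10.9-fold), Tnf (2.52-fold) and Il1b (2.73-fold). Among 18 receptors and inhibitors 3 rose and 9 fell (median -0.27). The interleukin 1 antagonist Il1rn rose 8.95-fold and the TNF receptor Tnfrsf1b 1.75-fold, while Il17rc fell 1.77-fold and Il22ra1, a subunit of the interleukin 22 receptor, 1.55-fold.

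Of 18 transcription factors and feedback genes 3 rose and 6 fell (median 0.01). The NF-kappaB subunit Rela (1.64-fold) and Bcl3 (1.85-fold) rose, and Relb (1.54-fold) and the inhibitor Nfkbia (1.46-fold) fell. Neutrophil-recruiting factors rose for 4 of 5 (median 1.24), namely Cxcl5 (6.25-fold), Cxcl1 (4.28-fold), Cxcl2 (2.36-fold) and Ccl2 (2.10-fold). Of 5 receptors for serum amyloid A, calprotectin or lipocalin 3 rose and 1 fell (median 0.58). Scarb1, a lipoprotein receptor, rose 2.91-fold, the lipopolysaccharide receptor Tlr4 1.83-fold and Tlr2 1.5-fold, and the fatty acid receptor Cd36 fell 2.26-fold. Among 11 other S100 genes 5 rose and none fell (median 0.42), with S100g at 18.5-fold, S100a14 at 9.46-fold, S100a6 at 5.82-fold and S100a11 at 3.50-fold.

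Genes that work beside the oxidases were read the same way. Of 10 other NADPH oxidase subunits 1 rose and none fell (median -0.003), the membrane subunit Cyba at 1.58-fold. The Nox1 organiser Noxo1 stood at -0.22 ± 0.15 and the GTPase Rac1 at -0.22 ± 0.10 on the log2 scale, and neither passed the test. Among 21 peroxidases and antioxidant enzymes 7 rose and 6 fell (median -0.14), with haem oxygenase Hmox1 at 2.62-fold, Pxdn at 1.93-fold and Prdx4 at 1.83-fold higher and Srxn1 at 1.53-fold lower. Of 12 genes of nitric oxide and arginine metabolism 4 rose and 1 fell (median 0.27). Gch1, which makes the cofactor of nitric oxide synthase, rose 3.17-fold where Nos2 fell. Arg1, an arginase that uses the same substrate, rose 7.47-fold, Ddah2 rose 2.78-fold and Arg2 fell 2.49-fold. Among 10 epithelial genes induced by microbes 2 rose and 4 fell (median -0.56), with Itln1 (2.30-fold), Ang4 (3.03-fold) and Pigr (2.49-fold) lower and Wfdc2 3.44-fold higher.

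Markers of the other tissues and regions gave 4 of 9 higher and 1 lower for fibroblasts, 1 of 11 higher and 5 lower for epithelium, and 1 of 7 higher and 1 lower for proximal small intestine. For fat it was none of 9 higher and 1 lower, and for colon none of 3 higher and 2 lower. The blocked fit moved a count by more than 1.5 times in 9 of the 20 lists. It gave 5 higher and 9 lower of the receptors and inhibitors, 5 and 6 of the transcription factors, 1 and 2 of the oxidase subunits, and 5 and 1 of the other S100 genes. For the markers it gave 4 and 0 of the neutrophil, 2 and 5 of the epithelial, 1 and 2 of the fat, 3 and 1 of the liver, and 2 and 3 of the proximal small intestine list. Epithelial markers summed to 5299 CPM or more in every adenoma, Min and matching wild-type library, and to 5912 CPM or more in the organoids.

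Over the 39 tissue libraries, Duox2 and Duoxa2 had the highest Spearman correlation of any pair of members, 0.819, and it was 0.629 within adenoma (n = 12), 0.734 within Min mucosa (n = 12) and 0.868 within wild-type mucosa (n = 15). Lcn2 and S100a9 correlated at 0.806 over all libraries, but at 0.476 within adenoma, 0.873 within Min mucosa and 0.306 within wild-type mucosa. Lcn2 and Saa3 gave 0.714 over all and 0.958 within adenoma. S100a8 and S100a9 gave 0.722 over all and 0.921 within adenoma. Saa1 went with Nos2 at 0.694 over all, 0.867 within Min mucosa and 0.483 within adenoma. The order of these pairs changed with the tissue, and within Min mucosa Duox2 went with Nos2 (0.874) above Duoxa2. All are descriptions by rank over libraries that share tissue and background.

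**Figure D3:**
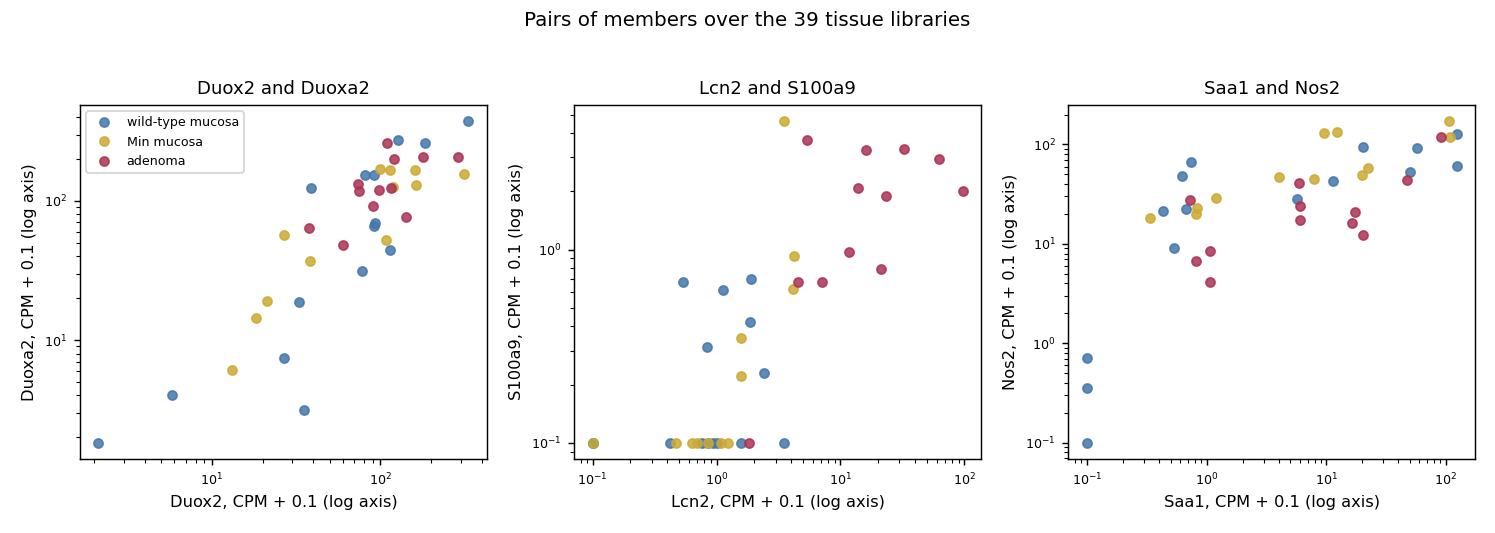
CPM plus 0.1 of 3 pairs of members on log axes, 1 point per tissue library (39 in all), coloured by tissue. Duox2 and Duoxa2 rise together in all 3 tissues (Spearman 0.819), Lcn2 separates adenoma from mucosa more than S100a9 does, and the 3 PWD libraries lie at the lower left of the Saa1 and Nos2 panel.

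The genes most like each member, by Spearman correlation of log2(CPM + 1) over the 39 libraries, were as follows. For Saa1 they were Tlr1 (0.898), Nlrx1 (0.851) and Reg3b (0.838), and the summed microbe-induced genes correlated with Saa1 at 0.801. For Nos2 they were Hspa12a (0.905), AW112010 (0.849) and the complement gene C2 (0.845). For Lcn2 they were the interferon-induced Ifitm3 (0.918), Scmh1 (0.89) and Ecscr (0.888), and for Saa3 Ckap4 (0.832), Eif4a1 (0.787) and Hist1h3f (0.78). Duox2 was most like Cdkal1 (0.834), the mucin Muc4 (0.815) and the gasdermin Gsdmc4 (0.805). Duoxa2 was most like Gsdmc3 (0.765), Gsdmc4 (0.735) and the glutathione peroxidase Gpx2 (0.731). Nox1 was most like Trim15 (0.811), Hk2 (0.736) and Tat (0.728), S100a9 like Slc16a3 (0.841), Gtf2ird2 (0.826) and Znrf1 (0.824), and S100a8 like Ednra (0.783), Snhg3 (0.743) and Itgb3 (0.738).

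Organoids, cultures of epithelium grown apart from the tissue, expressed the members at low levels. Saa1, S100a8 and S100a9 had no counts in the 8 libraries, and Saa2 had 4 in all. Of the members, 4 passed the filter in organoids, namely Saa3, Nos2, Duox2 and Duoxa2. Nos2 measured 0 and 1.46 CPM in B6 control cultures and 3.25 and 6.74 CPM with AZA, and 1.68 and 0 CPM in C5 control cultures and 2.17 and 1.83 CPM with AZA. The AZA libraries were above the control libraries in both backgrounds. Averaged over backgrounds the log2 change of Nos2 was 1.69 ± 1.1 (edgeR adjusted p = 0.275), and 2.63 with an adjusted p of 0.048 without C5 organoid control replicate 3.

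Saa3 had 2 counts in the B6 control cultures and 32 with AZA, a ratio of 19.0 (95% counting interval 4.85 to 163.5), and 1 and 7 in C5, a ratio of 9.18 (1.18 to 413.7). The counting intervals cover sampling of reads and not the spread between cultures, and the edgeR test gave 1.93 ± 1.01 on the log2 scale with an adjusted p of 0.173. Duox2 measured 3.32 and 0.436 CPM in B6 control and 3.94 and 2.59 CPM in B6 AZA, and 1.35 and 0.226 CPM in C5 control and 4.78 and 2.05 CPM in C5 AZA. Duoxa2 ranged from 0 to 2.19 CPM in control and from 0.864 to 4.57 CPM in AZA cultures. Lcn2 had no count in control cultures and 7 with AZA, and Nox1 had 2 and 8.

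No member was called in any of the 5 organoid comparisons by edgeR or DESeq2, and none had an unadjusted p under 0.05. The share of genes called was 28.5% for AZA over both backgrounds, 16.1% in B6, 14.6% in C5, 0% for the difference of the AZA effects, and 0.209% between control cultures. A p that misses the threshold does not show equal levels in these groups of 2 cultures.

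**Figure D4:**
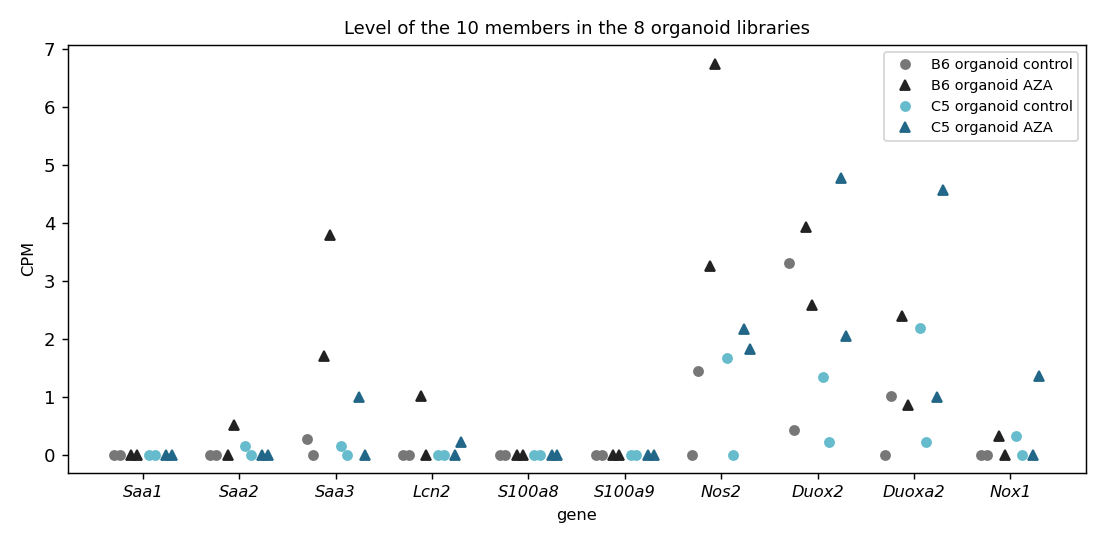
CPM of the 10 members (horizontal axis) in the 8 organoid libraries, with circles for control and triangles for AZA cultures and a colour for each group. Nos2 with AZA lies above its controls, Saa3 reaches 3.80 CPM in 1 B6 AZA culture, and Saa1, S100a8 and S100a9 stay at 0.

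Genes listed around the members changed with AZA. Among 7 microbe-induced epithelial genes tested 6 rose and 1 fell, with Reg3b at 26.7-fold, Reg3g at 15.3-fold and Ang4 at 10.3-fold higher and Dmbt1 8.23-fold lower. Of 6 inducing cytokines 4 rose, among them Tnf (16-fold), Il18 (5.78-fold) and Il33 (4.2-fold). Of 14 receptors and inhibitors 6 rose, led by Il1rn at 9.43-fold, Il10rb at 2.17-fold and Il22ra1 at 2.55-fold. Irf1 rose 2.94-fold and Nfkb2 2.66-fold among the transcription factors and feedback genes. Noxo1, the organiser of Nox1, rose 3.25-fold and Srxn1 2.71-fold. Among 10 other S100 genes 8 rose, with S100a6 at 8.99-fold and S100g at 6.47-fold. The chemokine Ccl20 rose 11.4-fold and complement C3 20.7-fold, the latter alone among 7 acute-phase proteins tested, with the metallothionein Mt2 lower. Macrophage and monocyte markers summed to 8.81 to 20.6 CPM in control and 47.7 to 61.2 CPM in AZA cultures, and epithelial markers to 5912 to 6156 and 7625 to 8134 CPM. Their part in the AZA values of the members was not tested.

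Tissue libraries held 2726505 to 20070696 gene counts (median 5831947) and organoid libraries 4389898 to 8373764 (median 6386046). Between 16.4 and 72.7% of the tissue counts fell on Rn45s, a precursor of ribosomal RNA, so that the depth left for other genes differed more than the totals, and neither RLE factors nor leaving out Rn45s moved the median gene of a comparison by more than 0.039 on the log2 scale. No pair of libraries of a group agreed within sampling noise.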

How the data were processed

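Whole-number read counts per gene for all 47 libraries were used as deposited. Per the submitters' processing notes, reads were aligned to mm10, a C57BL/6 genome, with BWA and counted with HTSeq, with versions and strand setting not given in the sources used here. Tissue and organoid libraries were fitted apart with edgeR 4.0.16 (R 4.3.3): TMM factors, a filter by group (minimum count 10, total 15), a prior count of 2 and the quasi-likelihood F-test, with Benjamini-Hochberg adjustment over all 13657 or 13395 genes. DESeq2 1.42.0 was an alternative. The 5 rows that name no gene, 40.7 to 53.9% of tissue and 46.4 to 63.5% of organoid reads, were left out. Groups came from the labels. Counting intervals and floors (3 counts) cover counting error only.

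Members and gene lists (20 lists, 257 of 261 genes in the table) were chosen with earlier results of these data known. Named were all members, up to 4 genes a list with the smallest p in adenoma against Min mucosa, up to 3 called in organoids, and 3 most like each member. Alb, Cd177, Ltf, Mpo, Elane, Reg3b, Mt2 and Dmbt1 are named beside the values they bear on. Replicate numbers, from the titles, pair adenoma with Min mucosa: deviations from group means correlated at 0.107 to 0.455 in 12 of 12 pairs. 1 gene that this rule names is not reported here. The tests were checked on simulated data.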

Additional observations from a re-analysis of the deposited data

Results flagged for a closer look

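The adenoma effect of 4 members differed between B6xPWD and B6 when the replicate number was a block in a fit of adenoma and Min mucosa alone, by an edgeR test of the difference itself. The log2 difference, B6xPWD minus B6, was 4.92 for Saa1 (adjusted p = 0.00133), higher in adenoma in 3 of 3 B6xPWD pairs and 0 of 3 B6 pairs. 1 of these B6xPWD pairs held only 5 counts of Saa1 in adenoma against 4 in Min mucosa. The difference was 2.63 for Duoxa2 (0.00084), 1.76 for Duox2 (0.00732) and 2.42 for Nox1 (0.0388), each higher in 3 of 3 B6xPWD pairs. In B6, adenoma was also higher in 3 of 3 pairs for Duoxa2 and in 2 of 3 for Duox2, and in 1 of 3 for Nox1. Without the block the differences were 4.71, 2.82, 2.08 and 2.49 for Saa1, Duoxa2, Duox2 and Nox1, with adjusted p of 0.465, 0.218, 0.447 and 0.237. With the block in a fit of all tissue libraries, none of the 4 was called.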

How the results depend on the processing

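The count of 6 members called in adenoma against Min mucosa was 3 to 7 over the 24 fits without 1 library and within 1.5 times of 6 under the 8 other settings. Leaving out 1 library gave 2 to 3 in B6, 1 to 2 in C5F1, 1 to 2 in C5, 2 to 4 in B6xPWD, 0 to 2 for B6xPWD and 2 to 5 for PWD against B6 wild-type mucosa, 2 to 3 for C5 and 2 to 4 for B6xPWD against B6 adenoma, and 0 to 1 for AZA over both backgrounds. Fitting the compared groups alone, with fewer genes tested, gave 1 in C5, 2 in B6xPWD, 1 for B6xPWD and 3 for PWD wild-type mucosa, and 2 for C5F1 adenoma. DESeq2 called 4 members for B6xPWD wild-type mucosa and 1 for C5F1 adenoma. The shares of all genes called in these alternative fits are not given here. With library totals alone the highest group mean was 3.24 CPM for S100a8 and 3.55 CPM for S100a9. Without 1 library, the log2 change of Saa1 over backgrounds ranged from -0.38 to 1.05 (-0.26 without B6 adenoma replicate 3, -0.38 without C5 adenoma replicate 2), that of Saa1 in B6 from -4.01 to 0.15 (the latter without B6 Min mucosa replicate 3) and that of Slc37a2 from -0.16 (without B6xPWD adenoma replicate 1) to 0.18. The cause of these moves was not tested. Of the values of single genes, 4084 kept direction and side of the threshold, 57 passed it, 96 no longer passed and 4 turned sign.

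The replicate block called 5 members in C5F1, both within all tissue and on adenoma and Min mucosa alone, where 29% of genes were called. On adenoma and Min mucosa alone it also called 5 in B6 (36.2% of genes) and 4 for the effect of B6xPWD minus B6 (3.85%). For C5F1 adenoma against B6 it called 1. There the block tied equal numbers of different backgrounds, which the labels do not pair. Numbers did not pair Min with wild-type mucosa (correlations -0.269 to 0.256) or AZA with control organoids (-0.012 to 0), where the block moved no count by over 1.5 times. No paired analysis was possible for control organoids of C5 against B6 because they share no numbers. Depth limits S100a8, S100a9, Saa2 and the organoid values to few counts.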
